A study of Mus musculus with 12 samples.

Results

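The cells described here are tumour T cells that had between 1 and 8 sister cells in the same library, that is, members of clones of 2 to 9 cells. A clone was the set of cells of 1 library whose leading beta chain (TRB) had the same V gene and the same CDR3 nucleotide sequence, and the leading chain was the one supported by the most unique molecular identifiers (UMIs). Of 10295 cells with a productive TRB, 447 (4.34%) were such members, and they fell into 162 clones: 113 clones of 2 and 49 clones of 3 to 9. Another 9165 cells were the only cell of their clone and 683 were in clones of 10 or more. The members were chosen by 2 measured values, the TRB sequence of each cell and the number of cells that carried it, so clone size and the beta chain are given as a description and support nothing else.

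The samples are labelled as CD45+ immune cells, from mammary tumours, of the mouse strain Balb/c. Treated samples carry a protocol of 3 weeks of cyclophosphamide, which alkylates DNA, together with pexidartinib, which blocks the CSF1 receptor of macrophages. The contig table has 6 libraries with a match among the samples: PBS1 (untreated, expression replicate 3), CSF1R (treated, expression replicate 1, a tie that holds for the group only), and CTX, PBS2, Combined and CTX2 (treated, receptor replicates 1 to 4). PBS2 carried conflicting labels, since its paired expression library is untreated, and treated and untreated libraries were compared without it. The labels do not define the library names, give no age and name no mouse, and nothing in them says that libraries came from separate animals, so a p-value here speaks only of the spread among these 6 libraries, which may be technical.

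A T cell clone descends from 1 cell that had already joined its beta chain genes in the thymus. The beta chain is assembled first, from a V, a D and a J segment, with bases trimmed and added at the joins. The cell then divides before its daughters each assemble an alpha chain (TRA) of their own, so cells with the same beta chain can carry the same or different alpha chains, while cells that divided after leaving the thymus keep both. The CDR3 is the loop at the V-J join, where most contact with the antigen peptide is made. The alpha chain took no part in the rule that made the clones, so it is an independent readout of whether sister cells shared a whole receptor.

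The members carried alpha-beta receptors. A productive TRA was found in 390 of 447 (87.2%). Immunoglobulin contigs, the mark of the B lineage, were at 0 in these cells, and so were gamma and delta chain contigs. The TRAV11-TRAJ18 chain of NKT cells and the TRAV1-TRAJ33 chain of MAIT cells were both at 0 of 390. That count is compatible with at most 0.769% each if cells were independent. The cells came from 155 clones with a TRA, so this limit is too low. The enrichment was for T cell receptors of the alpha and beta loci, so these zeros describe the contigs only.

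The receptors that recurred most among these clones are printed first, because they carry the finding that separate clones encoded nearly the same receptor. The TRBV13-2, TRBJ2-4 beta chain CDR3 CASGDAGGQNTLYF was encoded by 5 different clones of 2 to 9 cells, 4 in CTX2 and 1 in CTX. Capitals mark the 2 bases that differed among all 10 clones with this CDR3, each the last base of its codon.
CTX2, 7 cells: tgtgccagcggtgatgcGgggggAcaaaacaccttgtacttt
CTX2, 4 cells: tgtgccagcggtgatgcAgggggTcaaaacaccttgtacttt
CTX2, 3 cells: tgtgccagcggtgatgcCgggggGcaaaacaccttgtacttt
CTX2, 2 cells: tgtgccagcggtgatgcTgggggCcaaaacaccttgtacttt
CTX, 3 cells: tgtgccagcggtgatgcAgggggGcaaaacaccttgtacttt
No 2 of these 5 sequences were the same, and each encoded the same protein. The other 5 clones with this CDR3 were 2 clones of 10 or more cells in CTX2, with 86 and 55 cells, and 3 single cells in Combined.

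The alpha chains of these clones matched one another as well. The main TRA of each of the 5 clones used TRAV7-1 with TRAJ22 and a CDR3 of 36 bases. They are printed with 2 further clones described after them, and capitals mark the positions 6 to 9 that differed among the 7.
CTX2, 7 cells: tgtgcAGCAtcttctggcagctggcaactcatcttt
CTX2, 4 cells: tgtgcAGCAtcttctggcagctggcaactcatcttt
CTX2, 3 cells: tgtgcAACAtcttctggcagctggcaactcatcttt
CTX2, 2 cells: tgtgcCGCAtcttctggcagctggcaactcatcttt
CTX, 3 cells: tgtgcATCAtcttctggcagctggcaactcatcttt
Combined, 6 cells: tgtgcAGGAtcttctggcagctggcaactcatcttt
CTX2, 5 cells: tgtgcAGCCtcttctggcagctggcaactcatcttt
The translated alpha CDR3s were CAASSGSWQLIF in 3 of the CTX2 clones, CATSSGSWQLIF in the CTX2 clone of 3 and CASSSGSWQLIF in CTX. The Combined sequence belongs to the largest clone of that library, 6 cells with the beta CDR3 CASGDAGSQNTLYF, again TRBV13-2 with TRBJ2-4, and its alpha CDR3 was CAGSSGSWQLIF.

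The seventh clone, 5 cells in CTX2 with TRBV13-2, TRBJ1-2 and a beta CDR3 of 14 residues, carried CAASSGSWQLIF from the V gene copy TRAV7D-2. Across all libraries an alpha CDR3 of this form (TRAV7 family, TRAJ22, 2 free residues before SSGSWQLIF) was the main TRA in 7 of 155 clones of 2 to 9 with a TRA, in 3 of 21 clones of 10 or more and in 8 of 7387 single-cell clones. All 7 of the small clones used TRBV13-2 with a beta CDR3 that opened with the same 7 residues as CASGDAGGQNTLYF, and so did the 3 larger ones. Of the 8 single cells 4 used TRBV13-2 and 3 had that opening. This form was chosen after the values were seen, and its counts are a description. PBS1, PBS2 and CSF1R had no clone with it. On GRCm38.p6 TRBV13-2 lies on chromosome 6 at 41121396 to 41121832, TRAV7-1 on chromosome 14 at 52654817 to 52655329 and TRAJ22 on chromosome 14 at 54197248 to 54197307. TRAV genes lie in near-identical copies, so the split between TRAV7-1 and TRAV7D-2 is uncertain.

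A second beta chain recurred with a different alpha chain each time. TRBV5 with TRBJ2-1 encoded a CDR3 of 16 residues in 4 clones, 3 of them of 2 to 9 cells. Capitals mark the 3 bases that differed.
CTX2, 3 cells: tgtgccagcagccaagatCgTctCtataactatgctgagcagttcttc
CTX2, 2 cells: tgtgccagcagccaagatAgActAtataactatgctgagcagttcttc
PBS2, 3 cells: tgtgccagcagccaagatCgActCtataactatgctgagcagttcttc
The fourth clone was 1 of 11 cells in CTX2. Its cells carried TRAV3-4 with TRAJ57 (6 cells) or TRAV14-1 with TRAJ58 (5 cells), whereas the 3 small clones carried TRAV14N-1 with TRAJ58, TRAV9-4 with TRAJ53 and TRAV9N-2 with TRAJ45 in 2 cells each. The same beta protein sequence was thus joined to 5 alpha chains, and within each of the 3 small clones the cells with a TRA agreed.

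Clones of 2 to 9 made up very different parts of the 6 libraries. They held 43 of 192 TRB cells in PBS1 (22.4%, exact Clopper-Pearson 95% interval 16.7 to 29.0) and 103 of 532 in CTX (19.4%, 16.1 to 23.0). In CTX2 they held 115 of 1085 (10.6%, 8.83 to 12.6) and in PBS2 44 of 432 (10.2%, 7.50 to 13.4). CSF1R had 36 of 866 (4.16%, 2.93 to 5.71) and Combined 106 of 7188 (1.47%, 1.21 to 1.78). These intervals cover counting error only, and they take cells as independent. Members enter in whole clones (11 in PBS1 and 14 in CSF1R), so the intervals are too narrow and do not rank the libraries. By share, PBS1 and CTX were at the top, CTX2 and PBS2 in the middle, and CSF1R and Combined lowest.

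**Figure D1:**
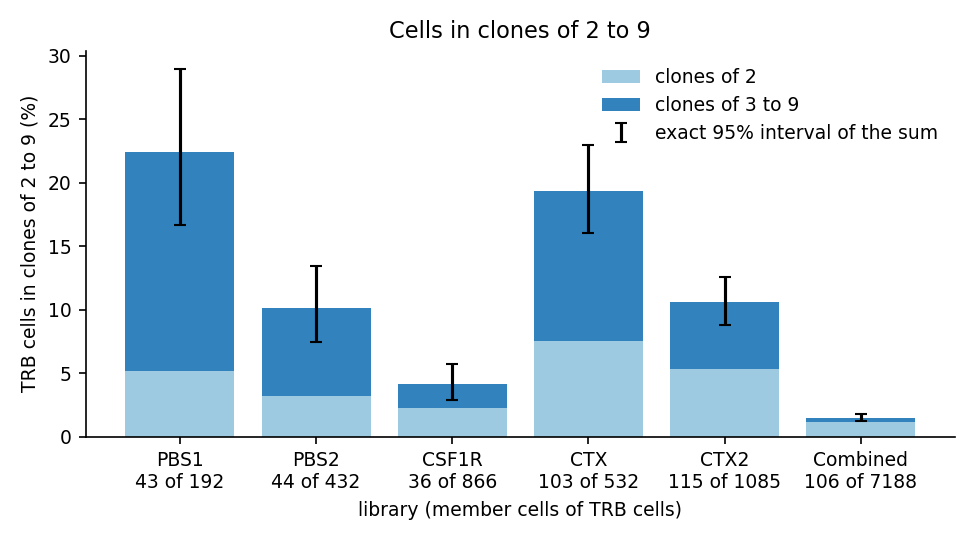
Share of TRB cells in clones of 2 to 9 (y axis, percent) in each library (x axis, with member cells of TRB cells), split into clones of 2 and clones of 3 to 9. The error bar is the exact 95% interval of the sum, too narrow because cells of a clone are not independent. The shares run from 1.47% in Combined to 22.4% in PBS1.

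The make-up of the group by size differed between libraries too. Of the 47 small clones of Combined, 42 had 2 cells (89.4%), and of the 14 of CSF1R, 10 had 2 cells (71.4%). CTX2 had 29 clones of 2 and 13 of 3 to 9, CTX 20 and 14, PBS2 7 and 7, and PBS1 5 and 6. Combined held 84 of its 106 member cells in clones of 2, and PBS1 10 of its 43.

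The share of cells in such clones depends on how many cells a library holds. At a common size of 192 TRB cells, that of PBS1, the share that the hypergeometric formula gives was 23.9% in CTX2, 1.55% in CSF1R and 0.0595% in Combined. Averaged over the 4 treated libraries the share was 8.90% (SD 7.96, n = 4), and all 4 lay below the 22.4% of PBS1. At the common size CTX2 lay above PBS1. Clone size chose the members, so no test of the share between treated and untreated libraries is given.

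The upper limit of 9 cells is a choice, and the clones next to it are these. Inside were the 9 cells of TRBV13-3 with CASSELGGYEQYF in PBS1 and 2 clones of 8 in CTX, TRBV13-2 with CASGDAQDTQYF and TRBV1 with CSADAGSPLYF. Outside were a clone of 10 in CTX2, 2 clones of 11 in CTX2 and 1 of 11 in CTX. Inside, the 9-cell clone and the 8-cell clone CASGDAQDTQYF each had 2 alpha chains as leading TRA, and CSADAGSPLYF had no productive TRA in any cell. Outside, the clone of 10 and 2 of the clones of 11 had 1 leading TRA in all their cells with a TRA, and the third clone of 11 had 2.

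Sister cells carried the same alpha chain in most clones of 4 libraries, and in a minority of the clones of CSF1R and Combined. Of 135 clones with at least 2 cells with a TRA, all sisters had the same leading TRA (V gene and CDR3 nucleotides) in 88. In 11 clones the leading TRA differed while every pair shared a productive TRA, which by definition requires cells with 2 TRA sequences. Such cells made up 67.3% of the cells of these 11 and 5.81% of those of the agreeing clones. In 36 clones at least 1 pair of sisters shared no productive TRA, and 25% of their cells had 2 TRA sequences. Of these 36, 32 were clones of 2 and 27 were in Combined. In single libraries all sisters agreed in 12 of 12 clones in PBS2, 33 of 37 in CTX2, 25 of 29 in CTX, 7 of 9 in PBS1, 3 of 11 in CSF1R and 8 of 37 in Combined. With the TRA taken by its CDR3 nucleotides alone, whatever V gene name it carried, CSF1R had 5 of 11 and the other libraries the same counts. Counted by pairs of sisters and not by clones, which gives the larger clones more weight, 10 of 20 pairs agreed in CSF1R and 32 of 64 in Combined.

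As the mean over clones of the share of sister pairs that agreed, agreement was 100% in PBS2, 92.9% in CTX2, 92.5% in CTX, 83.3% in PBS1, 33.3% in CSF1R and 23.2% in Combined. By CDR3 nucleotides alone it was 48.5% in CSF1R and the same as before in the other libraries. Pairs of cells from different clones of the same library agreed in 0.959% of pairs in PBS1 and in 0.000799% in Combined, the highest and the lowest of the 6. Sisters exceeded other pairs by 70.7 percentage points on average (SD 33.5, n = 6 libraries, higher in 6 of 6, two-sided exact sign-flip permutation p = 0.03125, the smallest that 6 libraries can give). Without Combined the difference was 80.2 points and without PBS2 64.8, where 5 libraries cannot give a p below 0.0625. The 4 treated libraries averaged 60.5% and PBS1 83.3%, a difference of -22.9 points (SD of the treated libraries 37.4, n = 4 and 1). Of the 4 treated libraries, 2 lay above PBS1 and 2 below. With 1 untreated library the exact permutation cannot pass, whatever the values, so no p-value is given and no conclusion is drawn.

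**Figure D2:**
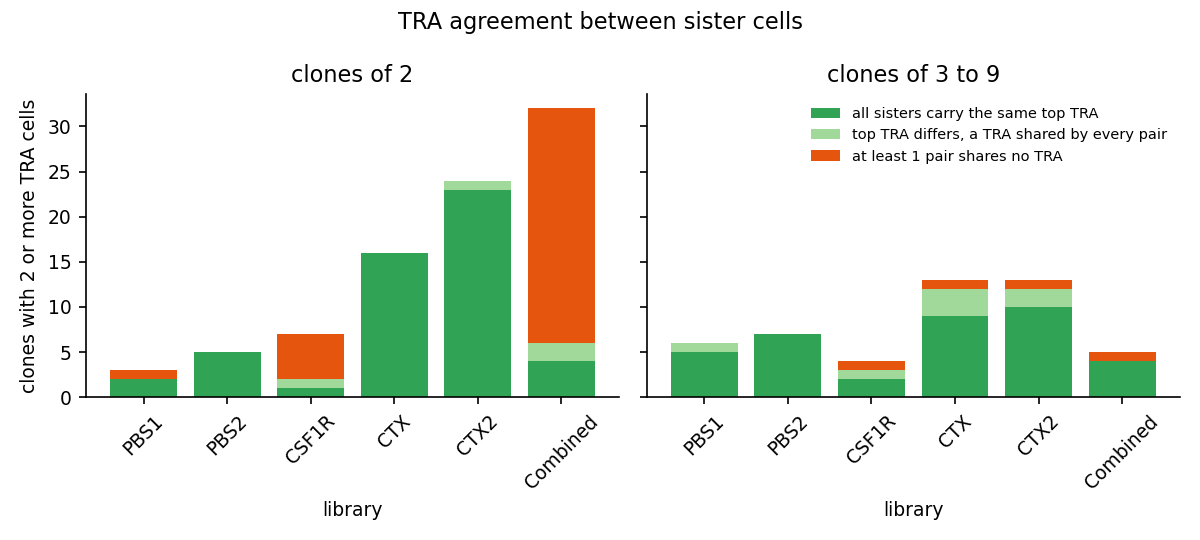
Number of clones with at least 2 cells with a TRA (y axis) in each library (x axis), for clones of 2 (left) and of 3 to 9 (right), coloured by whether sisters carried the same leading TRA. In clones of 2 the class without a shared TRA holds 26 of 32 clones in Combined and 5 of 7 in CSF1R, and 0 of 16 in CTX and 0 of 24 in CTX2. In 1 of the 5 CSF1R clones the sisters had the same alpha CDR3 nucleotides under different V gene names.

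The disagreement sat mainly in the clones of 2. The 2 cells agreed in 16 of 16 such clones in CTX, 23 of 24 in CTX2, 5 of 5 in PBS2 and 2 of 3 in PBS1, against 1 of 7 in CSF1R (exact 95% interval 0.361 to 57.9%) and 4 of 32 in Combined (3.51 to 29.0%). The interval of Combined lies below those of CTX (79.4 to 100%) and CTX2 (78.9 to 99.9%). Of the disagreeing CSF1R clones of 2, 1 had the same alpha CDR3 nucleotides under different V gene names. In clones of 3 to 9 mean agreement was 92.0% in Combined (5 clones), 66.7% in CSF1R (4), 83.2% in CTX (13), 87.4% in CTX2 (13), 91.7% in PBS1 (6) and 100% in PBS2 (7). Over the 6 libraries the mean was 64.9% in clones of 2 and 86.8% in clones of 3 to 9 (difference -21.9 points, SD 37.8, n = 6, two-sided exact sign-flip permutation p = 0.3125), a difference within the spread between libraries. Clones of 2 had the lower agreement in PBS1, CSF1R and Combined and the higher in CTX and CTX2, and PBS2 was at 100% in both.

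Clones of 2 to 9 and clones of 10 or more were compared in the 4 libraries with both. Mean agreement was 92.2% in the smaller and 82.8% in the larger clones, a difference of 9.34 points (SD 19.3, n = 4, higher in 3 of 4, exact sign-flip permutation p = 0.5, smallest possible 0.125). With all sister pairs pooled the difference turned to -1.77 points.

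Clones of 2 from Combined are printed here to show what disagreeing sisters looked like. They are the 3 clones with the most TRB UMIs among those whose sisters shared no TRA and, for contrast, the agreeing clone with the most. In each beta sequence capitals mark the central stretch, the bases left after removing the longest match to the usual start of its V gene's CDR3 and to the usual end of its J gene's.
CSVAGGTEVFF, TRBV1, beta: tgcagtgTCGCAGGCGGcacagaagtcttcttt
its alpha in cell 1: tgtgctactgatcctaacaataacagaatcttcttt
its alpha in cell 2: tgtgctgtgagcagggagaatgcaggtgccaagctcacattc
TRBV13-1 with TRBJ2-2, beta: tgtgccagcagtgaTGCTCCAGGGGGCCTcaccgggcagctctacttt
its alpha in cell 1: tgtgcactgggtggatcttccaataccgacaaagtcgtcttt
its alpha in cell 2: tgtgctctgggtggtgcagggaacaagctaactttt
TRBV13-1 with TRBJ2-3, beta: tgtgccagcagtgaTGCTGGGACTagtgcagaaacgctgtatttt
its alpha in cell 1: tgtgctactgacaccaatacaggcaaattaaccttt
its alpha in cell 2: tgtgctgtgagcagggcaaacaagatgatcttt
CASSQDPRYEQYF, TRBV5, agreeing, beta: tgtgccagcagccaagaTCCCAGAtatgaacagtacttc
its alpha in both cells: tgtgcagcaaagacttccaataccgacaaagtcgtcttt
In the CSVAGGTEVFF clone the alpha chains used TRAV8D-1 with TRAJ31 and TRAV9N-2 with TRAJ39, each on 1 UMI, while the beta chain had 19 and 21 UMIs in the 2 cells. The pair of alphas of the second clone used TRAV17 with TRAJ34 and TRAV6-6 with TRAJ17, on 6 and 3 UMIs. Those of the third clone used TRAV8D-1 with TRAJ27 and TRAV9N-2 with TRAJ47, on 5 and 4 UMIs. In all 3 clones the alphas of the sisters thus differed in both V and J gene.

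Most of the 36 clones with a pair that shared no TRA were of that kind. In 32 of them the closest alpha chains of such a pair used a different V or J gene, and 27 of these 32 were in Combined, 4 in CSF1R and 1 in PBS1. In 2 CSF1R clones the sisters had the same alpha CDR3 nucleotides under different V gene names (TRAV13-1 and TRAV13D-1 in one). By CDR3 nucleotides alone, 4 sister pairs of CSF1R shared no TRA in place of 7. The CTX clone of 4 with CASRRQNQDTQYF had 2 nucleotide sequences for 1 alpha protein sequence, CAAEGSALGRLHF from TRAV4-3 and TRAJ18, in 2 cells each. In CTX2 the clone of 4 with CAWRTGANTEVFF carried the alpha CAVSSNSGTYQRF in 3 cells and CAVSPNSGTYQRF in 1, both from TRAV9D-1 and TRAJ13.

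The depth behind agreeing and disagreeing clones was not the same. In Combined the median TRA of cells in agreeing clones rested on 7 UMIs and in clones with a pair sharing none on 3, and the median TRB on 23 and 11. A leading TRA of 1 UMI was found in 8.70% of the cells of the former and in 22.8% of the latter. In the less covered cell of those 27 Combined clones the TRB rested on a median of 8 UMIs, and in 2 of the 27 on 1 UMI. A further TRB of another sequence was seen in 8.77% of the cells of those 27 clones and in 4% of cells of the agreeing ones. With contigs of at least 2 UMIs only, agreement in Combined clones of 2 was 15.0% (20 clones), and with possible doublets left out 11.1% (27 clones). The part of depth in the remaining difference between libraries was not tested.

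Beta chains of the small Combined clones were less individual than those of single cells. The central stretch had a median of 8 bases (quartiles 6 and 10) in the 47 clones of 2 to 9 of Combined, against 11 (8 and 13) in its 7082 single-cell clones. Both agreeing and disagreeing Combined clones had a median of 8. In the other libraries the medians of the small clones were 10 in PBS1, 11 in PBS2, 11.5 in CTX2, 12 in CTX and 13.5 in CSF1R, and those of single-cell clones 10 or 11. The 6 CSF1R clones with a pair sharing no TRA had a median of 14.5, near the 13.5 of all small CSF1R clones. In 2 of these 6 the sisters had the same alpha CDR3 nucleotides under different V gene names. The beta CDR3 makes the clone, so these lengths are a description and were not tested.

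**Figure D3:**
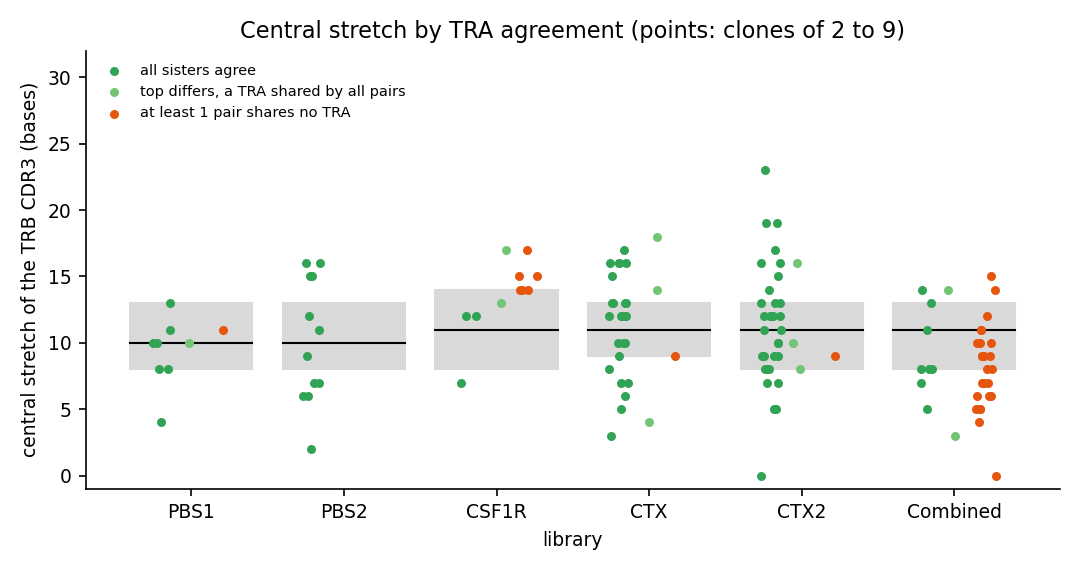
Central stretch of the TRB CDR3 in bases (y axis) by library (x axis). Points are clones of 2 to 9 with at least 2 cells with a TRA, coloured by TRA agreement, and the grey box and line give the quartiles and median of single-cell clones. The points of Combined without a shared TRA have a median of 8 bases, below its single-cell median of 11, and those of CSF1R lie at 14 to 17.

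Identical beta sequences were also counted between libraries. Of 11853466 pairs of clones from different libraries, 14 had the same TRBV gene and CDR3 nucleotides, or 1.18 per 1000000 pairs. By pairs of cells, the unit of the rates that follow, it was 97 of 17891143, or 5.42 per 1000000. Of these 97 pairs, 84 were between CTX2 and Combined and came from only 4 pairs of clones, so the rate by cells counts the same large clones many times. Within Combined, sister pairs that shared no TRA numbered 30 of 16402128 pairs of cells with a TRA, or 1.83 per 1000000, and sister pairs that shared a TRA numbered 34, or 2.07 per 1000000. Sisters without a shared TRA came to 67.2 per 1000000 in PBS1, 37.2 in CTX, 28.5 in CSF1R and 6.23 in CTX2, from 1, 4, 7 and 3 pairs, and PBS2 had none. The libraries differ in size from one another, and apart from PBS2 the rate was higher the fewer cells a library held. That order rests on few clones: the 4 pairs of CTX came from 1 clone, and so did the 3 pairs of CTX2. By alpha CDR3 nucleotides alone CSF1R had 4 such pairs in place of 7. These rates share cells within a library and carry no test.

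An identical beta sequence in 2 libraries did not always come with the same alpha chain. A pair of CDR3s of 9 residues, the shortest length among the small clones, show both outcomes, with 0 and 2 bases beyond their V and J ends.
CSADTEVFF, TRBV1 with TRBJ1-1: tgcagtgcagacacagaagtcttcttt
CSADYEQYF, TRBV1 with TRBJ2-7: tgcagtgcagactatgaacagtacttc
The first was found in 2 cells of CTX2 and 1 of Combined, and all 3 carried the same alpha nucleotide sequence from TRAV14D-3-DV8 and TRAJ52. The second was found in 4 cells of PBS2, which agreed on the alpha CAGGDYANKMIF, and in 1 cell of CSF1R with the alpha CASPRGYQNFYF. The 86-cell clone of CTX2 with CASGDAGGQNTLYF shared its beta nucleotide sequence with 1 cell of Combined, whose alpha was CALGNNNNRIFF from TRAV6-5 and TRAJ31. These receptors were chosen after the values were seen.

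Further receptors of small clones recurred in other libraries as single cells or large clones, again chosen after their values were seen. The 4 cells of PBS1 with TRBV13-1 and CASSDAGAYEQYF carried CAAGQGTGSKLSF (TRAV14N-1, TRAJ58), as did 1 cell of PBS2 with other nucleotides. A clone of 14 and 2 single cells of CTX had the same beta protein sequence, and 7, 1 and 1 of their cells carried the close alpha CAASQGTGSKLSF. The 9-cell PBS1 clone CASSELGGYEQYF had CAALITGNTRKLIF (TRAV14N-1, TRAJ37) as leading TRA in 6 cells and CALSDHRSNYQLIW in 3. That first alpha was found with the same beta protein sequence in 1 more clone of PBS1 and in 1 cell of Combined. The 8-cell CTX clone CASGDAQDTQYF had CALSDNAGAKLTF (TRAV12D-2, TRAJ39) as leading TRA in 3 cells, the main alpha of the 27-cell PBS2 clone with the same beta protein sequence.

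Small clones and single-cell clones were set side by side within each library. A clone's TRBV gene and CDR3 amino acid sequence was also found in another library for 11.3% of small clones and 3.62% of single-cell clones on average, higher in 5 of 6 libraries. In CTX2 the shares were 21.4% and 3.28%, and in CSF1R 0 and 2.65%. Most of the CTX2 small clones behind that share had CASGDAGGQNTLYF or the recurring TRBV5 CDR3 described above, so they repeat the same beta protein sequences. The beta chain is part of the rule, so this is a description and no test of it is given. The same holds for the median TRB UMIs per clone, which averaged 9.5 over the 6 libraries in small and 8.33 in single-cell clones.

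Of the 5 measures that the rule did not use, none passed an exact sign-flip test (two-sided, n = 6). Their p-values were adjusted over a family of 7, which held both beta chain measures. With 6 libraries the smallest possible p is 0.03125, and a single measure at that value would not pass after this adjustment. Not passing therefore does not show that small and single-cell clones were alike. The median TRA UMIs per clone, averaged over the 6 libraries, were 5.5 in small clones and 4.5 in single-cell clones. The difference was 1 UMI (SD 0.632, higher in 5 of 6 libraries, exact sign-flip permutation p = 0.0625, adjusted p = 0.328). The shares that follow are means over clones and then over libraries, so they differ from shares of all member cells. A productive TRA was found in 86.9% and 84.2% (difference 2.69 points, SD 3.76, adjusted exact permutation p = 0.4375). A second productive TRA of another sequence was found in 14.7% and 13.9%, a second TRB in 5.04% and 6.21%, and the mean alpha CDR3 had 13.6 residues in both. Their adjusted exact permutation p values were between 0.875 and 0.90625.

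Alpha chains recurred among the small clones, and the examples here were picked after their values were seen. Of the 155 small clones with a TRA, 22 had a main alpha (V gene, J gene and CDR3 amino acids) that was the main alpha of another small clone, and 9 alphas accounted for them. Among the 9 is the TRAV9-4 with TRAJ2 alpha of 2 CTX clones, described below, whose cells all carried both beta chains. Most of the 9 were also the main alpha of single-cell clones. No matching share was computed for single-cell or larger clones, so these counts are a description. For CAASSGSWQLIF, with 3 clones, the beta CDR3 was the same protein sequence each time, and for the other 8 the beta CDR3s differed. TRAV12-1 with TRAJ45 encoded 1 alpha of 15 residues in 3 clones, with 7 cells in PBS1, 6 in PBS2 and 6 in CTX2. All 3 used TRBV14, with the beta CDR3s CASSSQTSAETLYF, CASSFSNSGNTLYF and one of 15 residues. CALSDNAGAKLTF was the main alpha of TRBV13-2 clones with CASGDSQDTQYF in CTX and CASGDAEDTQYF in CTX2, and of a TRBV31 clone with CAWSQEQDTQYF in CTX2. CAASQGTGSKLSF went with TRBV13-1 in CSF1R (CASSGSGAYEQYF) and PBS2 (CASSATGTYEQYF). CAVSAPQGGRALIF was found with 3 beta V genes, TRBV3, TRBV13-1 and TRBV31, in 3 clones, and in 11 single-cell clones.

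One pair of small clones in CTX, singled out after its values were seen, shared both an alpha and a pair of beta chains. The 4 cells of TRBV13-2 with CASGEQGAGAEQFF and the 4 cells of a TRBV4, TRBJ1-4 clone each carried the beta chain of the other clone as a further TRB, in all 8 cells. The main alpha of both was the same, from TRAV9-4 and TRAJ2. The rule assigned each cell by which of its 2 beta chains had more UMIs, and these 8 cells are counted as 2 clones. Over all members, 28 of 447 (6.26%) had a further productive TRB of another sequence, 14 of them in CTX, and 74 (16.6%) a further TRA.

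Broken alpha chains were shared by sisters as well. A nonproductive rearrangement makes no receptor but stays in the DNA of a cell and its descendants. Where both sisters had a nonproductive TRA contig, 19 of 27 pairs shared it, against 0 of 52613 pairs of cells from different clones. The 19 pairs came from 3 clones, so they are few independent cases. The sequences of these 3 chains are shown with any in-frame stop codon in capitals.
CSF1R, 5 of 7 cells of the clone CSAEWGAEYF: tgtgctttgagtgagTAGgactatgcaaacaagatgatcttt
CTX, 4 of 4 cells of a TRBV4, TRBJ2-7 clone: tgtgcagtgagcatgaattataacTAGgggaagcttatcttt
CTX, 3 of 8 cells of the clone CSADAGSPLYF: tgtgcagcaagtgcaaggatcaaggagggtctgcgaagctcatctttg
The stop was codon 6 of the CDR3 in the first and codon 9 in the second, and the third held no in-frame stop within the CDR3. In the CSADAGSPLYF clone no cell had a productive TRA, so the shared broken chain was its only alpha readout. In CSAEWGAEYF 4 of the 7 cells had a productive TRA, and all 4 carried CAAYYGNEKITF.

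The 2 largest small clones of each library, other than the 2 clones of 8 in CTX described above, were these. In PBS1 they were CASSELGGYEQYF (9 cells) and TRBV20 with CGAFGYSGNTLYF (7 cells, all with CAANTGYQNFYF). In PBS2 they were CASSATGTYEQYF (6 cells, all with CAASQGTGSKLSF) and TRBV14 with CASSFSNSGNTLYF (6 cells, 4 with a TRA, all 4 agreeing). In CSF1R they were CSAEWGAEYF (7 cells) and a TRBV5, TRBJ2-3 clone of 3. In CTX2 the 7 cells of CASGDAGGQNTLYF split 5 to 2 between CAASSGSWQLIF and a TRAV15-1-DV6-1 alpha, with a TRA shared by every pair, while the 7 cells of a TRBV13-1, TRBJ2-1 clone all carried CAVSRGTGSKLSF. In Combined the 6 cells of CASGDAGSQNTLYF were followed by 5 cells of TRBV12-1 with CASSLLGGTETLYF, of which 4 carried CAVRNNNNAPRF and 1 an unrelated alpha. In that 1 cell the beta chain rested on 1 UMI, against 28, 25, 21 and 14 in the others, so its membership is uncertain. It had a further TRB and a further TRA, as did the cell with 28 UMIs.

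Beta V gene use of the small clones was led by the TRBV13 family. Counting each clone once, the family was used by 65 of 162 small clones (40.1%, exact 95% interval 32.5 to 48.1) and by 31.9% of single-cell clones. Most single-cell clones were from Combined, and with the libraries weighted by their small clones, a choice made after seeing the data, the single-cell share was 34.1%, inside that interval. The family's share exceeded that of single-cell clones in each of the 6 libraries, with the smallest excess in CTX2 (38.1% against 36.1%) and the greatest in PBS1 (54.5% against 27.5%). TRBV13-2 was in 31 clones (19.1%, 13.4 to 26.0, against 13.4% of single-cell clones), above the single-cell share in every library but PBS1, with 14.2% of clones of 2 and 30.6% of clones of 3 to 9. TRBV13-1 was in 12.3% and TRBV13-3 in 8.64% of small clones, against 11.2% and 7.29%.

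TRBV14 had 11 small clones (6.79%, 3.44 to 11.8), against 3.19% of single-cell clones (3.21% weighted) and 3 of 21 clones of 10 or more (14.3%). Small clones with TRBV14 were not found in every library: 5 were in CTX, 3 in CTX2, 2 in PBS1 and 1 in PBS2. CSF1R and Combined had none. TRBV14 lies on chromosome 6 at 41135167 to 41135616 on GRCm38.p6. TRBV5 was used by 11.1% of small clones, TRBV1 by 9.88% and TRBV19 by 7.41%, against 10.3%, 7.55% and 10.3% of single-cell clones. The intervals of these 3 contain the single-cell share. V genes whose T cells endogenous superantigens delete in this strain (TRBV12-1, TRBV12-2, TRBV15, TRBV16 and TRBV26) were in 3 of 162 small clones (1.85%, 0.384 to 5.32) and in 1.32% of single-cell clones, or 2.69% with that weighting. The V gene is part of the rule, so none of these shares was tested.

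**Figure D4:**
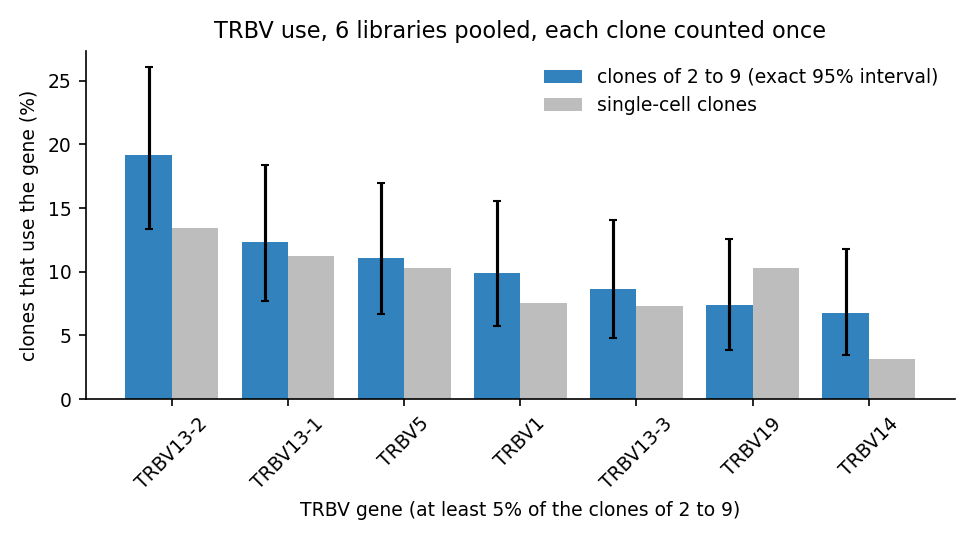
Percent of clones (y axis) that use each TRBV gene with at least 5% of the small clones (x axis), for the 162 clones of 2 to 9 and the 9165 single-cell clones of the 6 libraries pooled. Error bars are exact 95% intervals. TRBV13-2 leads with 19.1%, and TRBV14 is at 6.79% against 3.19%.

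Beta J gene use was close to that of single-cell clones. The TRBJ2 cluster was used by 66.7% of small clones (58.8 to 73.9) and by 61.7% of single-cell clones. The most used gene was TRBJ2-7, in 17.3% of small clones. TRBJ2-1 had 12.3% of them, TRBJ2-5 had 11.7%, TRBJ1-1 had 11.1% and TRBJ2-3 had 10.5%. TRBJ2-4, TRBJ1-3, TRBJ1-4 and TRBJ2-2 followed with 8.64%, 8.02%, 6.17% and 6.17%. The interval of each of these 9 genes contained the single-cell value.

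Among alpha genes the leading ones of the small clones were TRAJ45, in 13 of 155 clones (8.39% against 3.61% of single-cell clones), TRAV12D-2 in 12 (7.74% against 3.67%), TRAJ15 in 11 (7.10% against 2.68%) and TRAJ22 in 10 (6.45% against 2.78%). With the libraries weighted as for the beta genes the 4 single-cell shares were 3.70%, 3.45%, 3.08% and 3.85%. TRAJ52 was in 5.81% and 4.81%, and TRAJ31 and TRAJ49 were in 5.16% of small clones each. TRAV7-1 was in 8 small clones (5.16%) and in 0.988% of single-cell clones (0.818% weighted), and TRAV13-1, TRAV14N-1 and TRAV4-3 were in 8 small clones each as well. The recurring alphas described above are among these counts, so the clones behind them are not independent receptors. TRAJ45 lies on chromosome 14 at 54172831 to 54172890 on GRCm38.p6.

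The deposited clonotype numbers, which use both chains, split many of these clones. Of the 162 clones, 84 held cells of 2 or more deposited clonotypes, 39 of 47 in Combined and 11 of 42 in CTX2. This is not a count of disagreeing alpha chains. In PBS2 5 of 14 clones were split, although sisters agreed in all 12 of its clones with at least 2 cells with a TRA. Sister barcodes differed in at least 5 bases in every pair, so no pair of sisters was 1 barcode read with a single error. Among the 6 libraries 33 barcodes occurred in more than 1 library, none of them with the same TRB, and 3 member cells carried such a barcode. The libraries held 6807 (PBS1) to 121305 (Combined) UMIs in all, and the median TRB of a member rested on 4 UMIs in CSF1R and 13 in CTX2.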

How the data were processed

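Receptor transcripts of mouse T cells were enriched from 5′ droplet libraries, per the labels' protocols. Cell Ranger 3.0.2 and the builds mm10 and GRCm38 are named in the submitters' processing notes. The deposited table lists assembled contigs with their read count and UMI count, neither normalized, and with cell call, chain, genes and CDR3, all taken as deposited. It names 11 libraries, and the 5 that matched no label were not used. Expression matrices were not used here. Productive contigs of called cells were used with no minimum. The leading chain had the most UMIs (ties by reads, then contig name). A further TRA or TRB had to differ in V gene or CDR3 nucleotides, since repeated contigs of 1 sequence were common. Usual V and J ends of the CDR3 were built base by base from all clones, at a majority of at least 50%. Possible doublets stayed in. An alternative dropped cells with at least 2 TRB or at least 3 TRA.

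Libraries were the unit of every test: exact sign-flip permutation over 6 libraries, or exact permutation of 4 against 1, all two-sided, with Benjamini-Hochberg adjustment over 7 measures of small against single-cell clones and a threshold of 0.05. The permutation of 4 against 1 cannot reach that threshold, so its p-value is not given. Intervals are exact (Clopper-Pearson, 95%), and a count of 0 was given the limit of 3 counts of the total. Those counted in cells or barcodes treat cells of the same clone as independent, which makes them too narrow. The functions were tested on a simulated library with known clones. Gene positions came from a RefSeq table of GRCm38.p6, in which all 110 gene names of the small clones matched, and which is of another strain than Balb/c. Genes named were TRBV and TRBJ genes in at least 5% of small clones, the 5 most used TRAV and TRAJ genes with ties, the superantigen list and the TRBV13 family. Clones named were the 2 largest small clones of each library, clones of 8 to 11 cells, clones of 4 or more TRA cells with no majority TRA and receptors recurring among small clones. Members and lists were chosen with earlier results of these data known. Computation was in Python 3.11.15 with pandas 2.3.3, scipy 1.17.1 and numpy 2.4.6, and plots were drawn with matplotlib 3.10.9.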

Additional observations from a re-analysis of the deposited data

Results flagged for a closer look

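Barcodes that were not called cells also carried the beta chains of small clones. Of 1859 such barcodes with a productive TRB, 127 (6.83%, exact 95% interval 5.73 to 8.07) had the TRB of a clone of 2 to 9 of their own library, and no comparison above used them. Barcodes with the TRB of the same clone are not independent, so that interval is too narrow. The limit that a count of 0 allows is 0.161%. Single-cell clones accounted for another 418 of these barcodes and clones of 10 or more for 405, 370 of them in CTX2, so small clones were not alone in this. The share ran from 1.40% in Combined and 2.67% in CSF1R to 17.0% in CTX and 20.4% in PBS1. Counting 9 measures over the 4 treated libraries, Dixon's criterion at the 95% level set no library apart from the others.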

How the results depend on the processing

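Agreement of sisters over other pairs kept its direction and its exact permutation p of 0.03125 under 12 alternatives, from 67.9 to 86.6 points. Leaving out 1 library gave 64.8 to 80.2 points at an exact permutation p = 0.0625, the smallest that 5 libraries can give. Clones of 2 against 3 to 9 stayed between -25.4 and -14.8 points under 11 alternatives, and between -29.7 and -10.4 without 1 library. Against clones of 10 or more, pooling sister pairs gave -1.77 points. Agreement in treated against untreated libraries stayed negative (-31.2 to -9.35). With 1 untreated library the permutation cannot pass, whatever the values, so no conclusion is drawn from it. The difference in the share of members, for which no test is given, stayed between -15.7 and -7.39. Of 447 members, 221 were left with clones of 3 to 9, and 338 to 523 under the other 8 definitions. Member share in Combined was 2.94% with clones by amino acids, 0.471% with TRA and TRB together and 0.306% in clones of 3 to 9. Clones by amino acids lowered agreement in Combined to 11.6%, and pooled pairs gave 50% there and 70.4% in CTX. Counting every contig as a chain, a choice made after seeing the data, turned the difference in a second TRB to 1.82 points. Without 1 library the difference in alpha CDR3 length ran from -0.110 to 0.0572 residues, positive without PBS1. That in a second TRA ran from -1.33 to 3.01 points, negative without CSF1R and at -0.529 without Combined. No paired analysis was possible because 1 untreated library gives no pairs with the treated ones by replicate number. The other comparisons were made within each library. The number of libraries limits every test, and 3 to 7 UMIs per TRA limit the calls per cell.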
